A study of Mus musculus with 94 samples.

Results

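Among 46 single CD34-positive basophils sequenced from mouse bone marrow, the 15 cells with the most reads of 12 mitotic genes were set beside the 15 cells with the fewest. Basophils are rare granulocytes that carry the high-affinity IgE receptor and release histamine, cytokines and proteases. The mice were female C57BL/6, with no treatment and no genotype named. Cells were sorted 1 per well by index sorting from a gate that took lineage-negative, Sca1-negative, FcεRI-positive and CD34-positive cells, and a further gate took CD34-negative cells of the same kind. Marrow came from 3 mice and no label ties a cell to its mouse, so each group of cells counted as 1 sample. Every difference here is therefore a description of these cells, with no test and no p-value.

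The score of a cell was the summed counts per 1000000 gene reads (CPM) of Mki67, Top2a, Cdk1, Birc5, Tpx2, Nusap1, Ube2c, Ccnb2, Cenpf, Aurkb, Bub1 and Kif11. The cells were thus chosen by these measured CPM values. The rule took 30 of the 94 deposited cells. Of 47 CD34-positive cells, 46 held at least 50000 gene reads and were ranked. The cell left out held 31504 gene reads, of which 33 came from score genes (a score of 1047 CPM). The remaining 16 ranked cells are called the middle cells. The score was 1265 to 12528 CPM in the highest-score cells (median 5569), 152 to 856 CPM in the middle cells (median 333) and 1.16 to 123 CPM in the lowest-score cells (median 42.8). At the upper boundary the last cell taken had 1265 CPM and the next cell 856 CPM. At the lower boundary the last cell taken had 123 CPM and the next cell 152 CPM. The plot of cells by rank shows a gap inside the highest-score group, with 8 cells at 5569 CPM or more and the next at 2996 CPM.

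**Figure D1:**
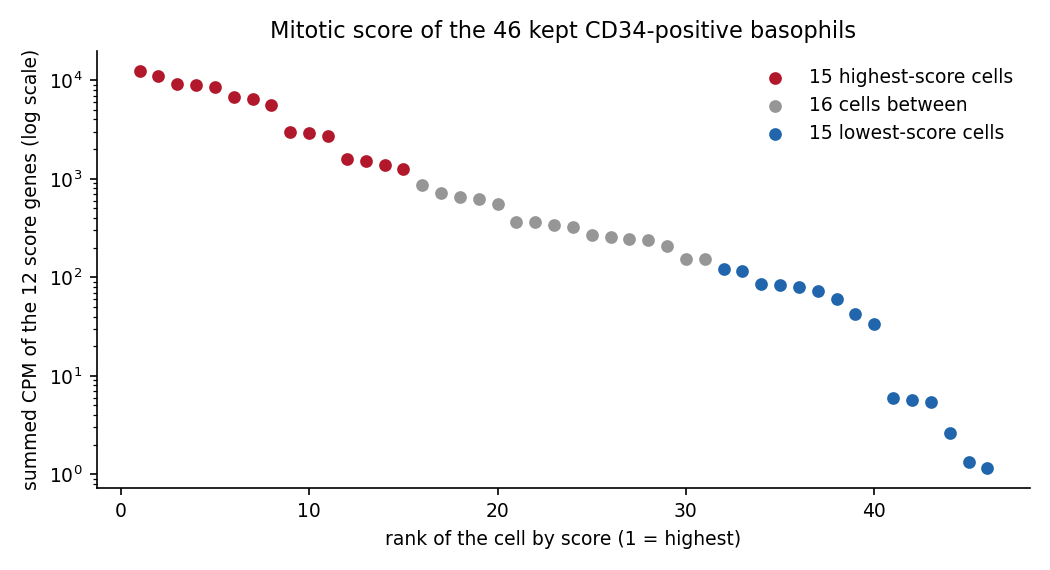
Score of each of the 46 kept CD34-positive cells (summed CPM of the 12 score genes, log axis) against its rank, coloured by group. The first 8 cells sit at 5569 CPM or above, the 15 highest-score cells end at 1265 CPM and the 15 lowest-score cells begin at 123 CPM.

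A dividing cell copies its DNA in S phase and separates the copies in mitosis, and the genes needed for these steps are transcribed in waves. E2F factors act on genes for DNA synthesis around the G1 to S transition. Later genes, needed for the spindle and for chromosome condensation and separation, often carry a CHR element (cell cycle genes homology region) and CCAAT boxes near their start sites, where the DREAM and MuvB complexes and NF-Y bind. In the basophil lineage, CD34 marks precursors that can still divide, and mature basophils are mostly non-dividing cells filled with granule proteases.

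Promoter sequences are shown for 3 score genes, 1 gene of DNA synthesis and 1 granule protease. The score genes chose the cells, so their division between the groups follows from the rule. Reads of the DNA synthesis gene were higher in the highest-score cells, and reads of the granule protease overlapped between the groups. Each run covers 150 bases before to 10 bases after the start site in the RefSeq table (GRCm38.p6), 5′ to 3′ on the gene's strand. Capitals mark matches on either strand to TTTGAA (the CHR letters), to the box CCAAT, or 1 of 4 spellings of the E2F letters. These are TTCCCGC as the first spelling, TTGGCGC as the next, then TTCGCGC in the Cdk1 run and finally TTGCCGC. No match overlapped another in these runs. The windows lie at chr10:69352903-69353062 (minus strand) for Cdk1, chr9:70421545-70421704 (minus) for Ccnb2, chr2:164769779-164769938 (plus) for Ube2c, chr7:102441545-102441704 (plus) for Rrm1 and chr17:25298244-25298403 (plus) for Prss34.
Cdk1: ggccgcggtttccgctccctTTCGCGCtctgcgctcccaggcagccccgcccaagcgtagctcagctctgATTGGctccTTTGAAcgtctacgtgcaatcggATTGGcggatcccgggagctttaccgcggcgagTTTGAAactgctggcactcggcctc
Ccnb2: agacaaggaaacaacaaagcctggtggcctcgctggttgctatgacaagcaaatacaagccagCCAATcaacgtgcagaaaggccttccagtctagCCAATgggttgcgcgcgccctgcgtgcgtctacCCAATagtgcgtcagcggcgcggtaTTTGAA
Ube2c: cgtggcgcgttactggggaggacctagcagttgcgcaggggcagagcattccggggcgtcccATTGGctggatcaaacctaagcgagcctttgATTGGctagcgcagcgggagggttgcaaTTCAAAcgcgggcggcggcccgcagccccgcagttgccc
Rrm1: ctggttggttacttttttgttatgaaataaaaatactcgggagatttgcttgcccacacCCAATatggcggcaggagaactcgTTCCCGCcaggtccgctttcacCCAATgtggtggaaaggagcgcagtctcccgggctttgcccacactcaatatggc
Prss34: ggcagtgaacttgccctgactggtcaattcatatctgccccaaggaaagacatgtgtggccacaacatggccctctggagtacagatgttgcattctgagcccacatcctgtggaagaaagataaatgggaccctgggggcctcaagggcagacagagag

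Cdk1, the kinase that starts mitosis, held 2 CHR matches, 2 CCAAT matches and 1 E2F match in its run. Ccnb2, a B-type cyclin that activates Cdk1, held 1 CHR and 3 CCAAT matches, and Ube2c, which charges the anaphase-promoting complex with ubiquitin, held 1 CHR and 2 CCAAT matches. Rrm1, the large subunit of ribonucleotide reductase, held 1 E2F match and 2 CCAAT matches. Prss34, a granule protease of basophils, held none of these letters. Over the full RefSeq windows of 300 bases, CHR letters stood in 70% of the 10 score genes found in the table (7 genes), against 20.2% of all 27025 genes. CCAAT stood in 80% of these score genes and in 41.1% of all genes. E2F letters stood in 20% of these score genes and in 10.9% of all genes. Among 33 S-phase genes found, CHR letters stood in 15.2% and E2F letters in 72.7%. None of the 11 granule genes found held E2F letters, and 18.2% held CHR letters. A match describes the letters in a window and is not evidence of binding.

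The 12 score genes are shown as a description, since they chose the cells. Mki67, the nuclear proliferation antigen on chromosome 7 (135689784 to 135716361, minus strand, GRCm38), ranged from 636 to 4047 CPM in the highest-score cells (median 1485) and from 0 to 117 CPM in the lowest (median 1.3). Top2a, the topoisomerase that untangles replicated DNA, ranged from 5.01 to 2551 CPM (median 1580) and from 0 to 84.1 CPM (median 0). The ranges of Top2a overlapped and those of Mki67 did not. Tpx2, Aurkb and Birc5, which build the spindle and steer chromosome attachment, had 220, 156 and 183 CPM over the summed highest-score cells and no read in any lowest-score cell. Cdk1 had 229 CPM against 0.284 CPM. When 200000 gene reads were drawn from every cell, a Mki67 read was found in 15 of 15 highest-score cells and 5 of 15 lowest-score cells (15 and 8 cells without drawing). Cdk1 reads were drawn in 10 and 2 cells (12 and 3 without drawing). A highest-score cell held reads of 3 to 12 score genes at this depth (median 10), and a lowest-score cell 0 to 3 (median 1).

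Beyond those 12 genes, 10785 genes had reads in at least 10 of the 46 cells. A fold is the log2 ratio of summed CPM plus 1, highest-score over lowest-score cells. A gene was called when this fold was at least 2-fold in the same direction for summed reads, for the mean of per-cell CPM, and for summed reads after leaving out, in each group, the cell richest in that gene. By this rule 1442 genes were called higher (13.4%) and 1290 genes lower (12%) in the highest-score cells. The median log2 fold over all of these genes was -0.00, so list medians below can be read against 0. Ranges in brackets after a log2 fold combine the separate 95% exact Poisson intervals of the summed reads of both groups. Each end sets the lower limit of either group against the upper limit of the other, so the ranges are wider than a 95% interval of the fold. They cover counting error only, because amplified reads without molecular identifiers are not independent molecules, and they say nothing of the spread between cells or mice. Gene reads per cell were 425637 to 1154738 in the highest-score cells (median 599253) and 374011 to 963475 in the lowest (median 742704).

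Several cells stood apart from the rest. Cell 1, in the highest-score group, had 49.0% of its gene and ambiguous reads assigned to more than 1 gene, 2.93 gene reads per spike-in read, 5.74% mitochondrial reads and 50.1 CPM of Prss34. Cells 6 and 35 of the highest-score group (2716 and 1001 CPM) and cell 40 of the lowest-score group (217 CPM) were also low in Prss34. Without these 4 cells, an alternative added after seeing the data, 1544 genes were called higher and 1537 lower. Cell numbers were unevenly divided as well. Of the cells numbered 1 to 6, 4 were highest-score and 1 was lowest-score, while the cells numbered 7 to 42 split 9 to 13. Inside that range the numbers were uneven too. Its highest-score cells were 9, 10, 11, 12, 13, 15, 28, 35 and 36. Its lowest-score cells were 14, 16, 17, 22, 24, 27, 29, 30, 31, 32, 33, 37 and 40. An alternative limited to the cells numbered 7 to 42 therefore does not even out this division. Markers of other cell types were low in both groups, and in no highest-score or lowest-score cell did a list of them sum to more than 556 CPM. Middle cell 34 had 1496 CPM of eosinophil markers. Over the summed highest-score and lowest-score cells, in that order, mast cell markers were at 6.77 and 14.5 CPM, with 5 of 9 markers without a read. Neutrophil markers were at 54.3 and 81.9 CPM (5 of 8 without a read), erythroid markers at 54.2 and 42.9 CPM (5 of 8) and B cell markers at 80.5 and 52.1 CPM (1 of 7). Eosinophil markers were at 45 and 34.9 CPM (3 of 7), and monocyte and dendritic cell markers at 48.8 and 62.4 CPM (1 of 7). Megakaryocyte markers were at 10.5 and 5.49 CPM (2 of 5), and T and NK cell markers at 0 and 0.379 CPM (5 of 6).

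The sum of the other mitotic genes was higher in most highest-score cells. Of 40 listed genes outside the score, 34 were measured in at least 10 cells, and 33 of these were called higher and none lower, beside 13.4% and 12% over all genes. Their median log2 fold was 4.08. Of the 34, 24 reached 10 cells only with the highest-score cells, so that their direction follows in part from the filter, and this count and median are a description. Their summed level ranged from 581 to 17482 CPM in the highest-score cells (median 6077) and from 141 to 1127 CPM in the lowest (median 466), and 13 of 15 highest-score cells lay above every lowest-score cell. The middle cells had a median of 489 CPM, close to that of the lowest-score cells. The 6 members below the filter were Plk1, Aurka, Cdc20, Kif20a, Hmmr and Cdc25c.

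Ccna2 encodes cyclin A2, which drives S phase and entry into mitosis, and lies on chromosome 3 (36564865 to 36572150, minus strand). It ranged from 0 to 716 CPM in the highest-score cells (median 136) and from 0 to 1.3 CPM in the lowest (median 0). Its log2 fold was 7.65 (7.10 to 7.84), with a single read in all lowest-score cells. Foxm1, the transcription factor of the G2 and M gene wave, ranged from 0 to 700 CPM (median 72.8) and from 0 to 7.21 CPM (median 0), a log2 fold of 6.94 (6.36 to 7.34). Plk1, a kinase of mitotic entry, had no read in the lowest-score cells and 109 CPM in the highest-score cells, at least 383-fold higher against a floor of 3 reads over the group. In each of these genes some highest-score cells were also at 0, so the groups overlapped there. Ccnb1, cyclin B1, was less one-sided, with 81.7 against 6.15 CPM (log2 fold 3.53, 3.12 to 3.95), and reached 49.8 CPM in lowest-score cell 40, without which the log2 fold was 4.42. Smc4, a condensin subunit, was read in 14 of 15 lowest-score cells at the drawn depth and had a log2 fold of 1.45 (1.33 to 1.57). Cks2, a small Cdk-binding protein, was the 1 measured member not called, at 43.8 against 29.1 CPM (log2 fold 0.58).

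Genes of DNA replication were higher in the highest-score cells too, but less sharply divided between the groups. Of 42 S-phase genes, 41 were measured, and 34 of these were called higher and none lower, beside 13.4% and 12% over all genes, with a median log2 fold of 2.0. Of the 41, 9 reached 10 cells only with the highest-score cells. Their summed level ranged from 1340 to 12559 CPM in the highest-score cells (median 7733) and from 85.0 to 5846 CPM in the lowest (median 1290). Only 9 of 15 highest-score cells lay above every lowest-score cell. The middle cells had a median of 4528 CPM, between the medians of the other groups, and reached 9970 CPM. Their mitotic median also lay between, but close to that of the lowest-score cells (489 and 466 CPM).

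Cdc45, a part of the replicative helicase on chromosome 16 (18780447 to 18811987, minus strand), ranged from 0 to 803 CPM in the highest-score cells (median 86.7) and from 0 to 4.47 CPM in the lowest (median 0), a log2 fold of 7.49 (6.92 to 7.83). It was drawn in 13 and 0 cells (14 and 1 without drawing). Rrm1, whose promoter is printed above, ranged from 0 to 1077 CPM (median 128) and from 0 to 399 CPM (median 1.49), with a log2 fold of 2.55 (2.37 to 2.74). Its lowest-score reads came for 63.0% from cell 40, and without that cell the log2 fold was 3.83. Rrm2, the small subunit of the same enzyme, had a log2 fold of 4.80, and 7.29 without lowest-score cell 31, which held 91.3% of that group's reads. Pcna, the sliding clamp of the polymerases, had 149 against 29 CPM (log2 fold 2.32). Other S-phase genes had many reads in the lowest-score cells as well and differed less. Mcm3 and Mcm6, subunits of the helicase that is loaded before S phase, had log2 folds of 1.23 and 0.43, and Dnmt1, the maintenance DNA methyltransferase, 1.20. Mcm6 was not called, and Mcm3 and Dnmt1 were at 0.77 and 0.85 when cells were ranked by the mean of log2 values. Without cell 16 Mcm3 was at 2.16.

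The label quiet for the lowest-score cells went against the S-phase reads of 3 of them. Cells 16, 43 and 17 had 5846, 5118 and 4290 CPM of S-phase genes, above 6 of the 15 highest-score cells in each case, with 28, 23 and 26 of the 42 S-phase genes read at the drawn depth. Their other mitotic genes summed to 141, 358 and 209 CPM. Without cell 16 the log2 fold of Mcm3 was 2.16.

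The highest-score cells were not alike, as the plot of both sums for every cell shows. Cells 12, 46, 35, 6 and 11 had the largest sums of other mitotic genes (17482, 14745, 13390, 10878 and 9180 CPM) and S-phase sums of 1802, 1340, 2337, 2480 and 3607 CPM. Cells 13, 4 and 28 combined mitotic sums of 8813, 6956 and 6077 CPM with S-phase sums of 8033, 11878 and 9816 CPM. Cells 9, 15, 2, 10, 36 and 47 had mitotic sums of 581 to 3084 CPM and S-phase sums of 7685 to 12559 CPM. Cell 1 had a mitotic sum of 2758 CPM and an S-phase sum of 1919 CPM. The mitotic sum that picks out the first 5 of these cells includes Ccnb1 and Plk1. There Ccnb1 was at 143 to 339 CPM and Plk1 at 149 to 764 CPM, while in the other 10 they reached at most 49.8 and 67.4 CPM. Ccne1, cyclin E1 of the G1 to S transition, and E2f1 had no read in the first 5 cells. Ccne1 was at 64.2, 267 and 218 CPM in cells 13, 4 and 28, and E2f1 reached 610 CPM in cell 47. In 6 of the 15 cells a high score thus came with many S-phase reads and with mitotic sums below those of the first 8, although 4 of these 6 (cells 15, 2, 10 and 47) lay above every lowest-score cell.

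**Figure D2:**
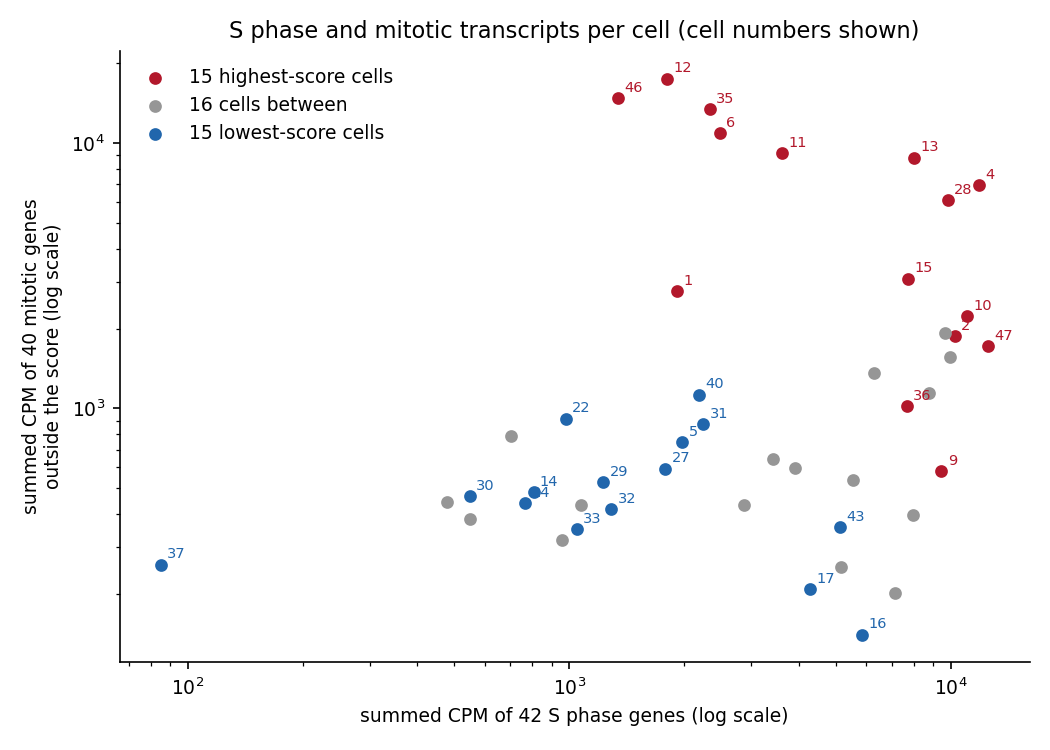
Summed CPM of 40 mitotic genes outside the score (vertical) against summed CPM of 42 S-phase genes (horizontal), 1 point per kept CD34-positive cell, both axes logarithmic. The middle cells have a mitotic median near that of the lowest-score cells (489 and 466 CPM) and reach higher on the S-phase axis (median 4528 and 1290 CPM), and 5 highest-score cells combine mitotic sums of 9180 CPM or more with S-phase sums of 3607 CPM or less.

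Control genes of the G1 phase were called in both directions. Of 27 listed cyclins, cyclin-dependent kinases, inhibitors and E2F factors, 20 were measured, 9 were called higher and 1 lower, beside 13.4% and 12% over all genes, and the median log2 fold was 1.03. Of the 20, 3 reached 10 cells only with the highest-score cells. E2f1, the activating factor whose motif is searched above, ranged from 0 to 610 CPM in the highest-score cells (median 0) and from 0 to 44.9 CPM in the lowest (median 0), a log2 fold of 4.64 (4.20 to 5.08). It was drawn in 7 and 1 cells, and in 11 of the 16 middle cells. Cdkn2c, which encodes the Cdk4 and Cdk6 inhibitor p18, had 87.4 against 2.46 CPM (log2 fold 4.67), and Cdkn1a, which encodes the inhibitor p21, 50.3 against 5.02 CPM (3.09). The lowest-score reads of these 3 genes came mostly from 1 cell each, and the log2 folds were 6.45 for E2f1 without cell 16, 6.20 for Cdkn2c without cell 31 and 4.99 for Cdkn1a without cell 40. Cdkn1b, which encodes the inhibitor p27, was at -0.23 and not called, at -1.02 without cell 1, -1.89 over the cells numbered 7 to 42 and 0.019 between the 10 highest and 10 lowest cells. Myc, a growth-promoting transcription factor, had a log2 fold of 2.30 in which cell 1 held 58.0% of the highest-score reads, and without cell 1 it was 1.15.

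Ccnd2 was the 1 G1 gene called lower. It encodes cyclin D2, which activates Cdk4 and Cdk6 in early G1, and lies on chromosome 6 (127125162 to 127152193, minus strand). Ccnd2 ranged from 0 to 373 CPM in the highest-score cells (median 0.866), had a median of 109 CPM in the middle cells, and ranged from 0 to 669 CPM in the lowest-score cells (median 191). Most highest-score cells were at or near 0, and cell 10 alone held 69.2% of that group's Ccnd2 reads. The log2 fold was -2.26 (-2.44 to -2.07), and -3.76 without cell 10. Reads were drawn in 7 of 15, 15 of 16 and 13 of 15 cells (8, 15 and 13 without drawing). Ccnd3, a related D cyclin, had 289 against 233 CPM, and Cdk6 had 954 against 1433 CPM (log2 fold -0.59), neither of them called.

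Genes of chromatin and tubulin showed the division with the least overlap outside the mitotic list. Of 23 listed histone, chromatin, nuclear lamina and tubulin genes, 17 were called higher and none lower, beside 13.4% and 12% over all genes (median log2 fold 1.68), and their sum in 11 of 15 highest-score cells exceeded every lowest-score cell. Tubb5, a beta-tubulin, ranged from 15 to 1848 CPM in the highest-score cells (median 1020) and from 0 to 750 CPM in the lowest (median 338), a log2 fold of 1.67. H2afx, the histone H2A.X of DNA damage signalling, had 237 against 24.4 CPM (3.22), and Cbx5, heterochromatin protein 1 alpha, 305 against 49.4 CPM (2.60). Tuba1b, an alpha-tubulin, and Stmn1, which binds tubulin dimers, had log2 folds of 3.58 and 3.00.

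The genes with the largest differences outside the score and the cycle lists are given as a description. Of those higher, all but Rad54l, Cit and Nsd2 passed the filter of 10 cells only with the highest-score cells, so that their direction follows in part or wholly from it. Kif4 was read in 10 cells, all of them highest-score cells, and Ankle1 and Hist1h2ab in 11, of which 10 were highest-score cells. Ankle1, a nuclease, had 2687 reads in the highest-score cells and 1 in the lowest, and Pclaf, a PCNA-binding factor, 2137 and 1. Ckap2l and Ncaph, of the spindle and of condensin, had no read in the lowest-score cells and were at least 711-fold and 629-fold higher. Kif15 and Kif4, kinesins of the spindle, were at least 489-fold and 398-fold higher. Fbxo5, an inhibitor of the anaphase-promoting complex, was at least 416-fold higher, and the histone gene Hist1h2ab at least 465-fold. Rad54l, of homologous recombination, had 1618 reads and 1 read, and Kif18b, a kinesin, 2154 and 2. Cit, the citron kinase of cytokinesis, had a ratio of 317, and Nsd2, a histone H3 methyltransferase, a ratio of 189. The log2 fold of Nsd2 was 7.77 without cell 32, and 7 with it.

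In the downward direction the named genes were of mixed kinds. Rnase4, Gm29112, Slc26a8, Pcsk4, Trim16, Glipr2 and Rarg reached 10 cells only with the lowest-score cells, so that their direction follows in part from the filter. Rnase4, a secreted ribonuclease, had 6 reads in the highest-score cells and 1041 in the lowest, drawn in 0 and 7 cells. Calcoco1, an adaptor protein, had 48 and 1444 reads, drawn in 2 and 12 cells, and Rit1, a small GTPase of the Ras family, 16 and 717. Rarg, a retinoic acid receptor, had 1 and 254 reads. Among the others were Gm29112, Slc26a8, Pcsk4, Trim16, Nudt19, Glipr2 and Rad1, with log2 folds of -5.29, -4.80, -5.03, -4.47, -4.70, -5.24 and -4.51. Single cells moved several of these values: the log2 fold of Calcoco1 (-4.50) was -6.08 without cell 46 and that of Rit1 (-4.68) -5.95 without cell 6. Rnase4 (-5.93) ranged from -6.64 without cell 28 to -5.32 without cell 37. Trim16 was at -5.85 without cell 35, Pcsk4 at -4.29 without cell 16 and Glipr2 at -3.82 without cell 33. Nudt19 was at -4.07 without cell 43 and Rad1 at -3.77 without cell 43 and -5.24 without cell 11. No gene of this group was read in every lowest-score cell. Of called genes named in other paragraphs, Cdc45, Rrm2, Cdkn1a, Cdkn2c, Ccl4, Hoxa9, Zfpm1, Mthfd2, Alg3 and Alg8 likewise reached 10 cells only with the highest-score cells, and Ccr2, Hlf, Slc7a4 and Dusp1 only with the lowest-score cells.

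The most abundant granule genes of basophils overlapped between the groups. Of 12 measured granule genes, none was called higher and 1 lower, beside 13.4% and 12% over all genes. The median log2 fold was -0.28, and 11 of 12 lay below 0. Prss34, which encodes the basophil protease mMCP-11 and lies on chromosome 17 (25298394 to 25300165, plus strand), ranged from 50.1 to 110727 CPM in the highest-score cells (median 59738) and from 217 to 118824 CPM in the lowest (median 57445). Mcpt8, the basophil protease mMCP-8, ranged from 13.3 to 38275 CPM (median 21376) and from 526 to 38893 CPM (median 15379). Cpa3, carboxypeptidase A3, had medians of 3939 and 4814 CPM. The groups overlapped over nearly their whole range in all 3 genes, and the log2 folds were -0.07, 0.09 and -0.30. Without the 4 cells low in Prss34 or Mcpt8 they were 0.07, 0.22 and -0.13. The highest-score cells 12, 46 and 28, for example, had granule gene sums of 111919, 84835 and 153713 CPM, and the largest sum of that group was 157944 CPM in cell 15.

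Other granule genes lay somewhat lower in the highest-score cells. Slc18a2, the vesicular monoamine transporter, had medians of 282 and 607 CPM (log2 fold -0.81), and Hdc, which makes histamine, 563 and 699 CPM (-0.27). Ndst2, which sulfates the heparan chains of granule proteoglycan, had a log2 fold of -1.10 but did not reach 2-fold in every version. Ctsb, the lysosomal protease cathepsin B, was the 1 gene called, with medians of 57.2 and 239 CPM and a log2 fold of -1.12 (-1.27 to -0.98), which was -0.93 when cells were ranked by the mean of log2 values.

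Of 20 measured receptor genes of basophils, 1 was called higher and 4 lower (median log2 fold -0.31), beside 13.4% and 12% over all genes, and 3 of the 4 lower calls depended on the setting or on 1 cell. Fcer1a, the IgE-binding chain of FcεRI, ranged from 167 to 6866 CPM in the highest-score cells (median 4276) and from 776 to 7074 CPM in the lowest (median 2564), a log2 fold of 0.44. Ms4a2, the beta chain, had medians of 2640 and 3130 CPM (-0.29), and Fcer1g, the gamma chain, 866 and 976 CPM (-0.23). The receptor chains thus did not move in 1 direction. Csf2rb2, the IL-3 specific beta chain on chromosome 15 (78282507 to 78305721, minus strand), ranged from 55.5 to 579 CPM in the highest-score cells (median 233) and from 7.27 to 2916 CPM in the lowest (median 578). It was called lower, with a log2 fold of -1.40 (-1.49 to -1.31). The middle cells had a median of 617 CPM, near that of the lowest-score cells. Reads of its near-identical neighbour Csf2rb, the common beta chain, could be split between these genes by the counting, so the division between them is uncertain, and Csf2rb had a log2 fold of -0.43. Ptger3, a prostaglandin E receptor, was called lower (-1.59) but had a log2 fold of -0.35 between the 10 highest and 10 lowest cells. Il18r1, an IL-18 receptor chain, was called higher (1.32) but was at 0.030 when cells were ranked by the mean of log2 values, 0.76 between the 10 highest and 10 lowest cells and 0.89 without cell 4. Ccr2 and Hrh4 were called lower, at -2.47 and -1.02, but were at -0.10 and 0.22 without lowest-score cell 37. Without highest-score cells 2 and 46, respectively, they were at -4.49 and -3.12.

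Effector genes had the lowest median of the basophil lists, at -0.57, with 2 of 15 called higher and 3 lower, beside 13.4% and 12% over all genes. Il4, a cytokine typical of basophils, ranged from 0 to 170 CPM in the highest-score cells (median 9.18) and from 0 to 300 CPM in the lowest (median 50.6). Its log2 fold was -1.63 (-1.91 to -1.35), and reads were drawn in 8 and 14 of 15 cells (11 and 14 without drawing). The middle cells, with a median of 57.2 CPM, were again close to the lowest-score cells. Csf1, the macrophage growth factor, had 288 against 623 CPM (-1.11) and was not called. Ccl9, a chemokine, had a log2 fold of -1.14 in which highest-score cell 46 held 79.8% of its group's reads. It was -3.32 without that cell and -0.63 without lowest-score cell 37. Ccl4, also a chemokine, was called higher at 2.80 and was at 0.95 without cell 46 and 4.47 without cell 37. Osm, oncostatin M, was called lower at -1.38 and was at -0.73 without cell 37 and -0.41 when cells were ranked by the mean of log2 values. Lta4h, which makes leukotriene B4, was at 1.09 and at 0.87 without cell 15. The chemokine and Osm values thus moved with single cells.

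Of 12 measured genes of the primary granule programme, which early granulocyte precursors express, none was called higher and 4 lower, beside 13.4% and 12% over all genes (median -0.27). The abundant members overlapped between the groups. Mpo, myeloperoxidase, ranged from 129 to 7898 CPM in the highest-score cells (median 2442) and from 0 to 7571 CPM in the lowest (median 1797), and the middle cells had the highest median at 4306 CPM. Ctsg, cathepsin G, had medians of 2832 and 3687 CPM. Their log2 folds were 0.29 and 0.14. Igsf6, an immunoglobulin superfamily receptor, had medians of 82.7 and 101 CPM and a log2 fold of -1.54. Elane and Lyz2, neutrophil elastase and lysozyme, had log2 folds of -1.99 and -2.07 that were -0.39 without cell 22 and -0.66 without cell 27, and -3.14 and -4.08 without cell 6. Elane was at 0.47, the other sign, when cells were ranked by the mean of log2 values. Alas1, of heme synthesis, was at -1.10, at -0.48 when cells were ranked by the mean of log2 values, -0.83 without cell 32 and -1.70 without cell 46.

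Progenitor genes had a median log2 fold of -0.41, with 1 of 16 called higher and 3 lower, beside 13.4% and 12% over all genes. Cd34, the gene of the sorting antigen on chromosome 1 (194938819 to 194961279, plus strand), ranged from 0 to 91.8 CPM in the highest-score cells (median 1.83), had a median of 40.8 CPM in the middle cells, and ranged from 0 to 424 CPM in the lowest-score cells (median 45.1). The log2 fold was -2.21 (-2.53 to -1.90), and -1.99 without the 4 cells low in Prss34 or Mcpt8. Reads were drawn in 7 of 15, 9 of 16 and 10 of 15 cells (8, 10 and 10 without drawing), so the groups differed more in reads per cell than in the number of cells with a read. All of these cells had been sorted for the protein. Kit, the stem cell factor receptor, had reads drawn in 7 and 6 cells, with 87.4 against 108 CPM (log2 fold -0.30). Myb and Angpt1, a progenitor transcription factor and the ligand angiopoietin 1, had log2 folds of -0.48 and -0.45. Hlf and Adgrl4, a stem cell transcription factor and an adhesion receptor, were called lower at -2.08 and -2.07, with 14.9 CPM of Hlf in the lowest-score cells. Their highest-score reads came mainly from cell 6, and without it the log2 folds were -2.91 and -3.63. With a pseudocount of 10 CPM Hlf was at -0.96. Hoxa9, a homeobox gene, was at 1.02, at 0.12 without cell 6, at 3.06 without cell 17 and at -0.10 without the 4 cells low in Prss34 or Mcpt8. Without the 4 cells low in Prss34 or Mcpt8 the median of the list was -0.82, with none of 16 called higher and 6 lower. Over all 10785 genes 1544 were then called higher and 1537 lower.

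Lineage transcription factors had a median log2 fold of -0.21, with 2 of 21 called higher and 3 lower, beside 13.4% and 12% over all genes. Their summed level in 7 of 15 highest-score cells lay below every lowest-score cell. Gata2, which directs basophil and mast cell fates, ranged from 570 to 2771 CPM in the highest-score cells (median 1679) and from 966 to 3501 CPM in the lowest (median 2079), a log2 fold of -0.58 (-0.63 to -0.54). Cebpa, a factor of granulocyte fate, ranged from 61.4 to 625 CPM (median 213) and from 209 to 1201 CPM (median 401), a log2 fold of -0.79. Neither was called, and the ranges overlapped. Nfe2 and Fli1 were similar, at -0.62 and -0.65. Runx3, a Runt-domain factor on chromosome 4 (135120652 to 135177990, plus strand), was called lower, with medians of 28, 106 and 112 CPM in the highest-score, middle and lowest-score cells and a log2 fold of -1.77 (-1.97 to -1.57).

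Gfi1, a repressor that restrains proliferation of stem cells and guides granulocyte fate, had 1 read in all highest-score cells and ranged from 0 to 168 CPM in the lowest (310 reads). It lies on chromosome 5 (107716657 to 107726036, minus strand). It was read in 10 or more cells only with the lowest-score cells, so that the direction follows in part from the filter. The log2 fold was -4.78 (-5.08 to -4.10), and -4.03 without lowest-score cell 31, which held 46.8% of the reads. At the drawn depth Gfi1 reads were found in 0 of 15 highest-score cells (0% to 21.8%, Clopper-Pearson 95%), 4 of 16 middle cells and 5 of 15 lowest-score cells (33.3%, 11.8% to 61.6%), so that most cells of every group had none. Without drawing, reads were found in 1, 5 and 6 cells. Gfi1b, a related repressor, was called lower (-1.22) and was at -0.88 without cell 29 and -1.85 without cell 10. Zfpm1, a GATA cofactor, was called higher, with 65.9 against 4.45 CPM (3.62), and all of its lowest-score reads came from cell 16, without which that group had no read. Its log2 fold was 6.06 without cell 16 and 2.99 without highest-score cell 28. Id1, an inhibitor of helix-loop-helix factors, was called higher at 1.60, and was at 2.41 without cell 5.

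**Figure D3:**
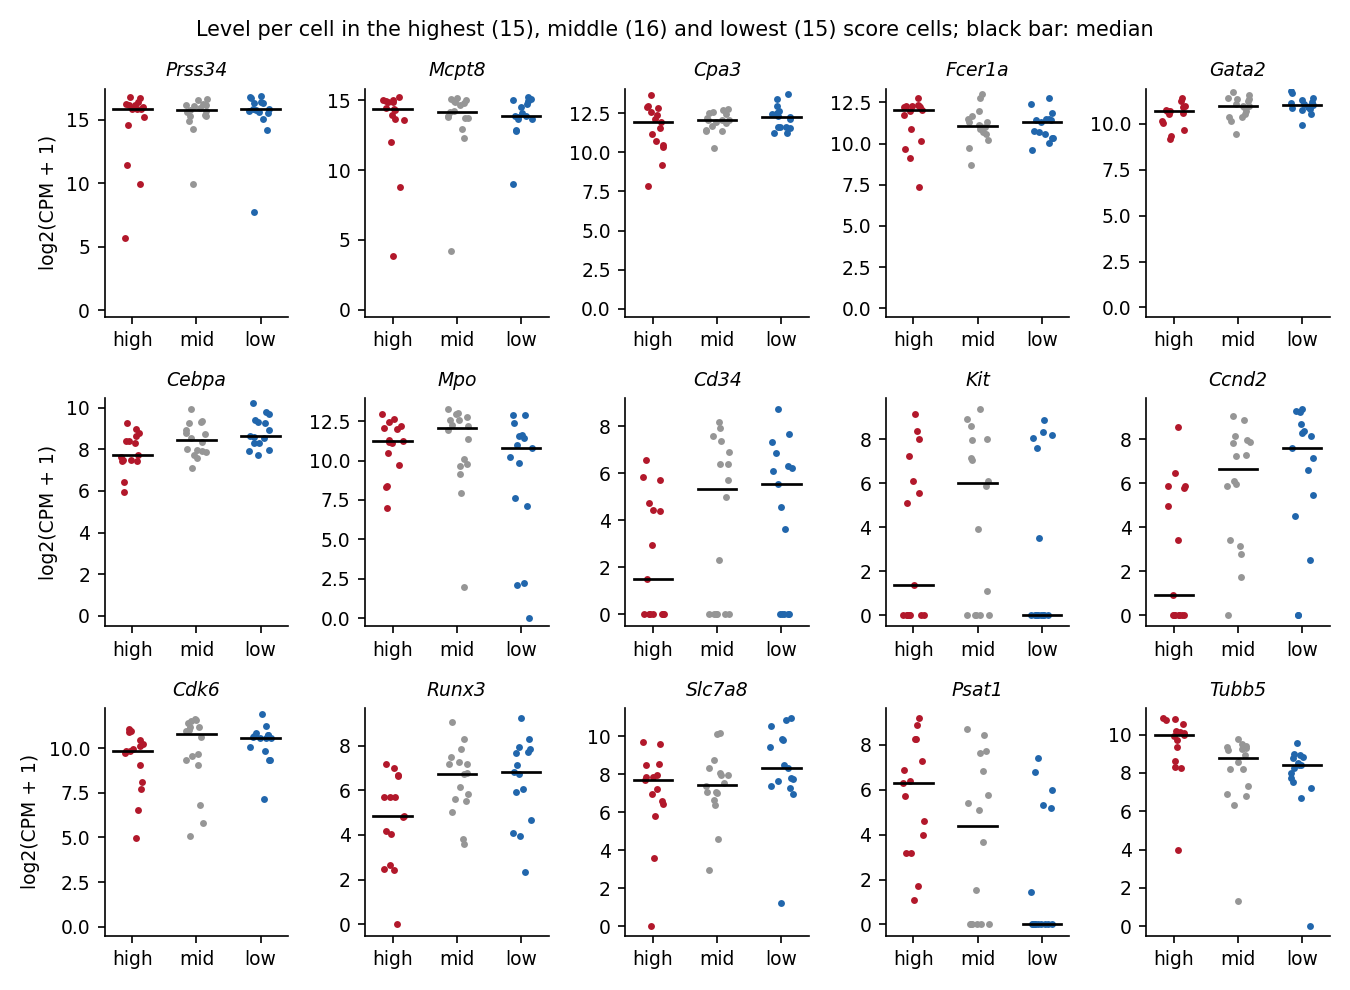
CPM of 15 genes in each highest-score, middle and lowest-score cell (vertical axis log2 of CPM plus 1, 1 point per cell, black bar at the group median). Prss34, Mcpt8 and Cpa3 overlap throughout, while Ccnd2 (medians 0.866, 109 and 191 CPM), Cd34 (1.83, 40.8 and 45.1 CPM) and Runx3 (28, 106 and 112 CPM) are lower in the highest-score cells.

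Of 20 measured adhesion and migration genes, none was called higher and 2 lower, beside 13.4% and 12% over all genes. The median log2 fold was -0.49. Their sum in 7 of 15 highest-score cells lay below every lowest-score cell. Itga4, the alpha chain of VLA-4, ranged from 0 to 376 CPM in the highest-score cells (median 25.7) and from 1.44 to 752 CPM in the lowest (median 130). It was called lower, with a log2 fold of -1.54 (-1.70 to -1.37), and was at -2.42 without the 4 cells low in Prss34 or Mcpt8. The ranges overlapped. Cd47, a surface signal against phagocytosis, had medians of 961 and 1537 CPM (-0.57) and was not called.

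Metabolic lists differed by less than 2-fold in their medians. Glycolysis had a median log2 fold of 0.32 (2 of 20 called higher, 2 lower), the TCA cycle -0.08 (1 and 1 of 22), the nuclear-encoded respiratory chain 0.44 (8 and 0 of 50), sterol synthesis 0.18 (1 and 2 of 18) and the mitochondrial genome 0.45 (0 and 0 of 14), beside 13.4% and 12% over all genes. All 14 mitochondrial transcripts lay above 0, and the median was 0.10 without the 4 cells low in Prss34 or Mcpt8, among which cell 1 had the largest mitochondrial share. The respiratory chain then had 4 of 50 called higher and 2 lower, beside 1544 and 1537 of all 10785 genes. Ldha, lactate dehydrogenase A, had medians of 550 and 318 CPM and a log2 fold of 0.32. Gapdh was called higher (1.62) and Pfkl, the liver-type phosphofructokinase, lower (-1.62, and -2.40 without cell 10). Ndufa2 and Cox5a, subunits of complexes I and IV, were called higher at 1.49 and 1.3. Idh3a, of the TCA cycle, was called higher at 2.10, and was at 2.69 without cell 5.

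The nucleotide and one-carbon genes divided most among the metabolic lists, with 8 of 27 called higher and 4 lower (median 0.51), beside 13.4% and 12% over all genes. Psat1, which makes phosphoserine in the serine pathway and lies on chromosome 19 (15904678 to 15947337, minus strand), ranged from 1.16 to 577 CPM in the highest-score cells (median 78.4) and from 0 to 167 CPM in the lowest (median 0), a log2 fold of 2.41 (2.18 to 2.64). It was drawn in 13 and 5 cells (15 and 6 without drawing). Phgdh, the first enzyme of the same pathway, had medians of 38.4 and 0 CPM (2.54). Without lowest-score cell 40 these log2 folds were 2.99 and 3.58. Cad, which starts pyrimidine synthesis, had medians of 112 and 22.8 CPM (1.79). Mthfd2, a mitochondrial folate enzyme, had a log2 fold of 5.75 in which cell 28 held 73.2% of the reads, and 4.10 without it. Fpgs, which retains folates in the cell, and Prps1, which makes the ribose donor of nucleotides, were called lower at -2.40 and -1.68, and were at -3.43 without cell 4 and -2.36 without cell 10. Dhodh and Psph were called lower too, at -1.54 and -1.08, and were at -0.93 without cell 22 and -0.79 without cell 16. Without cell 9 Psph was at -1.77, and without cell 15 Dhodh was at -2.23.

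Of 10 amino acid transporters, 2 were called higher and 2 lower (median -0.40), near the 13.4% and 12% over all genes. Slc7a8, a transporter of large neutral amino acids on chromosome 14 (54722209 to 54781946, minus strand), ranged from 0 to 820 CPM in the highest-score cells (median 204) and from 1.32 to 1972 CPM in the lowest (median 324). Its log2 fold was -1.47 (-1.56 to -1.37), and -0.95 between the 10 highest and 10 lowest cells. Slc7a1, an arginine and lysine transporter, had medians of 44.3 and 0 CPM (1.83), and Slc43a3, which carries purine bases, 37.4 and 0 CPM (3.49, and 4.56 without cell 14). Slc7a4 was called lower (-1.43) and was at 0.03 without cell 29 and -4.81 without cell 6.

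Genes of protein synthesis and turnover had few called members beside 13.4% and 12% over all genes. Ribosome biogenesis had a median of 0.17 (3 of 30 called higher, 2 lower), which was 0.58 without the 4 cells low in Prss34 or Mcpt8, and cytosolic ribosomal proteins -0.19 (1 and 1 of 46). The sum of the ribosomal protein genes was 8380 CPM at the median highest-score cell and 11546 CPM at the median lowest-score cell. Proteasome and chaperonin genes had a median of 0.35 (4 and 0 of 37), with Psmd2, a regulatory subunit, at 1.60 and at 0.97 between the 10 highest and 10 lowest cells.

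**Figure D4:**
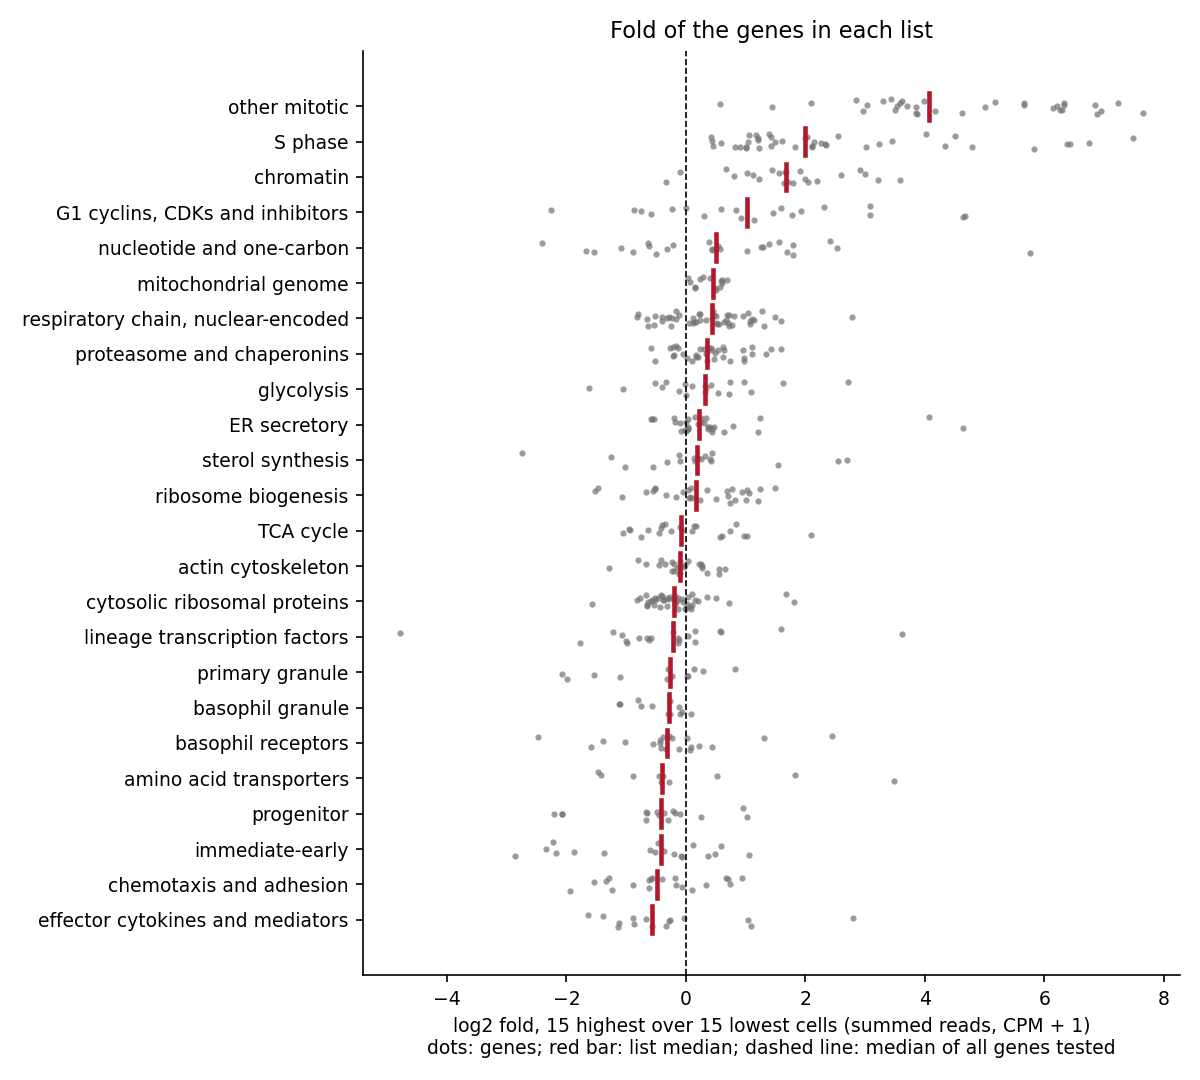
Log2 fold of every measured gene of each list, highest-score over lowest-score cells (1 point per gene, red bar at the list median, dashed line at the median of all 10785 genes). The mitotic, S-phase and chromatin lists have medians of 4.08, 2.0 and 1.68, and the basophil granule, receptor and progenitor lists -0.28, -0.31 and -0.41.

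RNA content was measured against the spike-in. At 200000 drawn reads the highest-score cells had 4078 to 8732 genes with a read (median 6810), the middle cells a median of 6776 and the lowest-score cells 4639 to 7462 (median 6179). Gene reads per ERCC spike-in read, a measure of RNA per well, were 2.93 to 23.8 in the highest-score cells (median 15.9) and 6.87 to 26.0 in the lowest (median 11.9), with a median of 15.4 in the middle cells. Both ranges overlapped, and 10 of 15 highest-score cells lay above the lowest-score median of reads per spike-in read. Ambiguous reads had medians of 23.0% and 18.3% and mitochondrial reads 2.34% and 2.19%. The part of RNA content in the gene differences was not tested.

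**Figure D5:**
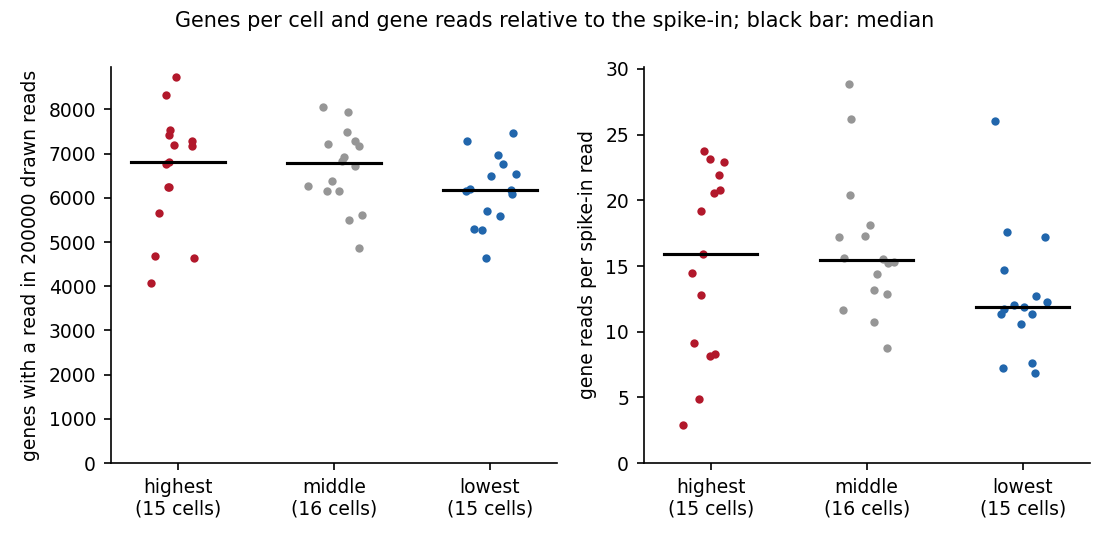
Genes with a read at 200000 drawn gene reads, and gene reads per ERCC spike-in read, in each highest-score, middle and lowest-score cell (1 point per cell, black bar at the median). The medians are 6810, 6776 and 6179 genes and 15.9, 15.4 and 11.9 gene reads per spike-in read, and the groups overlap in both panels.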

How the data were processed

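The authors deposited 1 table of raw read counts per gene for 94 single cells, 47 per gate, with 46078 mouse gene identifiers, 92 ERCC spike-in sequences and 5 summary rows, which are no genes and held 63.7% of all reads. Per the labels' protocols, polyadenylated RNA was amplified in 19 PCR cycles and sequenced single-end at 50 bp. The submitters' processing notes name GSNAP 2015-09-29, HTSeq 0.5.3p3 and the mm10 genome build. The strand setting is not given in the sources used here, so overlapping and antisense genes are uncertain.

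CPM values were computed here from gene reads only, with Python 3.11.15, pandas 2.3.3 and scipy 1.17.1. Cells under 50000 gene reads were left out (1 per gate). Reads were summed per group, and log2 folds used a pseudocount of 1 CPM. Genes needed reads in at least 10 kept CD34-positive cells. Shares of cells with a read used 200000 gene reads drawn per cell. Every kept cell was deep enough. Symbols matched 45143 identifiers and 718 of 719 list symbols. Gene coordinates come from an annotation of GRCm38, the assembly that mm10 names, and promoter sequences from RefSeq. Cells were sorted singly, so doublets were not called and no clustering was done.

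The 12 score genes, the gene lists and the comparison were chosen with earlier results of these data known. Genes were named by rule: the score genes, the 12 genes per direction with the largest fold outside the cycle lists and at least 20 CPM in a group, and members of the lists, preferring abundant genes and large folds. The rule also allowed abundant transcripts of other kinds, which are not described. Some items that the rule names are not reported here. The fold calculation was tested on simulated data. Alternatives changed the ranking, scaling (TMM factors from edgeR 4.0.16, scran 1.30.0 size factors, ERCC), pseudocount, filter, cells used and depth drawn.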

Additional observations from a re-analysis of the deposited data

Results flagged for a closer look

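CD34-negative cells 25 and 36 had scores of 9316 and 7194 CPM, in a gate the comparison did not use. The other 44 kept CD34-negative cells reached at most 607 CPM, with a median of 5.64 CPM. Cell 25 held reads of all 12 score genes and cell 36 of 11. Their other mitotic genes summed to 11717 and 7792 CPM, against at most 1467 CPM in the other 44 cells, and their S-phase genes to 5419 and 10693 CPM, against at most 5750 CPM in the others, so that cell 25 did not stand apart there.

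Prss34 was at 92634 and 88513 CPM (others: median 5499 CPM, maximum 90652 CPM) and Mpo, myeloperoxidase, at 1655 and 2114 CPM, above the maximum of 724 CPM in the others. Ccl6, a chemokine, was at 73.3 and 462 CPM, where the median of the others was 3242 CPM. Cd34 reads were 0 and 1.12 CPM and Kit reads 0 in both. Genes with a read at 200000 drawn reads numbered 7324 and 6444, against a median of 4479 and a maximum of 6648 in the others, so that cell 36 lay within their range. With 2 cells no comparison was made.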

How the results depend on the processing

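No value above comes from a test, so the alternatives show how far values moved, not whether calls held against replicate error. No paired analysis was possible because the cell numbers in the labels only name cells, the comparison lies within 1 gate and no test was run. Ranking by the mean of log2 values kept 14 of the highest-score and 13 of the lowest-score cells, and ranking on drawn reads kept all 15 and 15. The median log2 fold of all genes was -0.052 between the 10 highest and 10 lowest cells, -0.039 with scran size factors, -0.10 with ERCC scaling, -0.069 over the cells numbered 7 to 42 (9 against 13 cells) and -0.029 without the 4 cells low in Prss34 or Mcpt8. With a pseudocount of 10 CPM, 825 genes were called higher and 666 lower and the other mitotic list had a median of 3.12. Counts were highest without the top cell of each gene, at 2013 higher and 1851 lower. Over the cells numbered 7 to 42 the effector list was at -1.20 and the primary granule list at 0.10, the other sign, and the progenitor list at -0.82 without the 4 cells low in Prss34 or Mcpt8. Without those 4 cells 1544 of all 10785 genes were called higher and 1537 lower. The calls lower were then 2 of 12 granule, 5 of 12 primary granule, 5 of 21 transcription factor, 4 of 20 adhesion and 5 of 18 sterol genes. Of 27 nucleotide and one-carbon genes, 10 were called higher. Leaving out 1 cell at a time gave 1415 to 1608 genes higher, 1241 to 1428 lower, an all-gene median of -0.021 (without cell 35) to 0.030 (without cell 40), and medians of 3.92 to 4.82 for other mitotic, 1.45 to 2.12 for S phase, -0.39 to -0.24 for granule, -0.38 to -0.15 for receptor, -1.08 to -0.34 for effector, -0.40 to -0.15 for primary granule and -0.64 to -0.17 for progenitor genes. The difference in genes per cell ran from 609 to 811 and the log2 ratio of gene reads per ERCC read from 0.35 to 0.56. Under the other alternatives that difference ran from 338 (detection at 10 reads) to 971 genes (cells numbered 7 to 42). The log2 ratio between the groups was 0.028 for gene reads as a share of gene plus ERCC reads, a share that cannot exceed 1, and 0.38 to 0.57 for gene reads per ERCC read.

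Of 2070 values of 138 single genes under the other alternatives, 1527 lay within the counting interval and 518 outside it kept their sign. In all, 27 had the other sign, some of them within the interval. Of called genes, Elane was at 0.47 when cells were ranked by the mean of log2 values and Hoxa9 at -0.10 without the 4 cells low in Prss34 or Mcpt8. Leaving out 1 cell gave -3.12 to 0.22 for Hrh4 and -4.81 to 0.026 for Slc7a4. The cause of these changes was not tested, except that each left fewer cells or other cells in the groups. Eno1, Pdha1, Atp5j, Ier3 and Hrh4, whose folds were near 2, went under 2-fold in several of the alternatives. At these depths a gene at 0 in a cell cannot be told apart from one that was not captured.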

Other observations

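Immediate-early genes respond within minutes to stimulation or handling. Of 18 measured, 1 was called higher and 6 lower, beside 13.4% and 12% over all genes, and the median log2 fold was -0.42. Junb, an AP-1 subunit, ranged from 0 to 37.2 CPM in the highest-score cells and from 0 to 286 CPM in the lowest, both with a median of 0, and had a log2 fold of -2.86 (-3.42 to -2.30), which was -4.21 without cell 11. It was drawn in 2, 8 and 6 of the highest-score, middle and lowest-score cells. Zfp36l1, an RNA-binding protein that destabilises messages, had medians of 0 and 24.5 CPM (-2.23). Dusp1, a MAP kinase phosphatase, was at -1.87, and at -0.56 without lowest-score cell 22, -2.70 without cell 10 and -2.59 without cell 46. The 1 gene called higher was Ier3 (1.05), which was at 0.38 between the 10 highest and 10 lowest cells and 0.73 without cell 2.

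Genes of the endoplasmic reticulum had a median log2 fold of 0.22, with 4 of 32 called higher and none lower, beside 13.4% and 12% over all genes. Of these, Alg3, a mannosyltransferase that builds the dolichol-linked glycan, had medians of 41.3 and 0 CPM (4.64, 4.20 to 5.09), and Alg8, a glucosyltransferase of the same pathway, 11 and 0 CPM (4.08). Their lowest-score reads came for 95.1% from cell 31 and for 100% from cell 24. Without cell 31 the log2 fold of Alg3 was 6.66. Actin cytoskeleton genes had a median of -0.10 and no gene of 26 was called. Their sum had medians of 22268 and 20197 CPM.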
